A study of Mus musculus with 7 samples.

Results

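Ribosome biogenesis and RNA polymerase I genes were examined in blood stem and progenitor cells of mice labelled TRAF6 transgenic and of wild-type littermates. Members were taken by a rule on gene symbols, which was written with earlier results of these data known. They were the genes whose symbol starts with Rrp, Utp, Nop, Polr1, Noc, Gar1, Imp3, Imp4 or Nsun, and a fixed set of further nucleolar genes such as Ncl, Bop1, Pes1, Bysl and Ifrd2. The rule found 53 genes among 14860 with a symbol of their own on the array. Fbl, Npm1 and Dkc1, which the rule also names, and Polr1c had no row with a single symbol and were not analysed here. The rule also took in Noct, a circadian gene for the phosphatase nocturnin that is not known as a ribosome assembly factor, and Nsun3 and Nsun4, whose proteins work in mitochondria.

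All 7 mice were untreated adults of the FVB strain. LSK cells were sorted from their bone marrow, a fraction rich in stem and progenitor cells that is negative for lineage markers and positive for Sca-1 and c-Kit, and the RNA of each mouse was amplified and read on 1 Affymetrix mouse exon array. The labelled transgenic group held the arrays 03, 04 and 05 and the wild-type group the arrays 21, 22, 23 and 24. Not given in the sources used here are the promoter that drives the transgene, the number of founder lines and the sex of the mice. Levels are the authors' log2 values, so a difference of 1 is a doubling, and differences are labelled transgenic minus wild type.

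Ribosomes are built in the nucleolus. RNA polymerase I transcribes the long ribosomal RNA precursor, small nucleolar RNPs guide its chemical modification, and the small subunit processome and the pre-60S factors fold and cut it into the small and large subunit RNAs. The pathway is among the best known targets of the transcription factor Myc and is used more heavily by growing and dividing cells. Blood stem cells in particular are known to make protein slowly.

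Traf6, the gene named in the genotype, had no higher level in the labelled transgenic group. It stood at 8.06, 8.14 and 7.52 on arrays 03, 04 and 05 and 7.95, 8.20, 8.12 and 8.33 on arrays 21 to 24, a difference of -0.24 (SE 0.18, limma adjusted p = 0.676), so the genotype label was not checked by it. The Y-linked gene Eif2s3y was measured at 2.91 to 3.05 in the labelled transgenic group and at 8.05 to 8.64 in wild type. The labelled genotype and this signal therefore cannot be told apart in any result. The sorted fraction carried Kit, the gene of c-Kit, at 10.15 to 10.67 and Cd34 at 10.77 to 11.19. Ly6a, the gene of Sca-1, had no row with a single symbol. Genes used as lymphoid markers were not uniformly dim: mean levels over all arrays ran from 3.01 for Ms4a1 to 8.91 for Cd37 among 7 B cell genes, and from 3.58 for Cd3g to 10.20 for Nkg7 among 8 T and NK cell genes. They ran from 4.20 for Ngp to 11.73 for Mpo among 12 granulocyte and monocyte genes. Among 8 erythroid genes they ran from 5.42 for Alas2 to 10.78 for Car2. Array 05 stood apart with the lowest mean correlation with the others, 0.966 against 0.970 to 0.976, and the lowest array weight, 0.284. On it the median of all clusters above the 40th percentile of signal was 0.16 below their wild-type means, so counts or medians of most classes and lists are given with and without that array.

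The genes for making ribosomes stood higher on the labelled transgenic arrays as a group, by a modest amount. Of the 53 genes, 47 had a higher mean and 6 a lower one, where 49.7% of all 23332 clusters had a higher mean. The median difference was 0.26 against -0.00176 over all clusters. At an unadjusted limma p under 0.05, 19 genes were higher and 1 was lower, and 5.22% of all clusters were higher and 5.05% lower by that rule. All 3 labelled transgenic arrays lay above all 4 wild-type arrays in 19 genes (5.17% of all clusters) and below them in 1 (5.18%). No gene passed the Benjamini-Hochberg adjusted threshold of 0.05 in limma, the smallest adjusted p being 0.279, and 0.0214% of all clusters did. Single gene differences are therefore given as values. In sorted bulk cells, fewer cells of a type and less RNA per cell cannot be told apart.

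Nearly all of these genes were well above the dim end of the array. Of the 53, 52 lay above the 40th percentile of mean signal, and 13999 clusters did so in all. Among those clusters 50% had a higher mean, 6.77% were higher and 6.08% lower at unadjusted p under 0.05, and 0.0357% passed the adjusted threshold. The labelled transgenic arrays lay above all wild-type arrays in 6.46% of them and below in 6.31%. The 1 gene below was Nsun7, at 3.04 to 3.68 on all arrays.

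**Figure D1:**
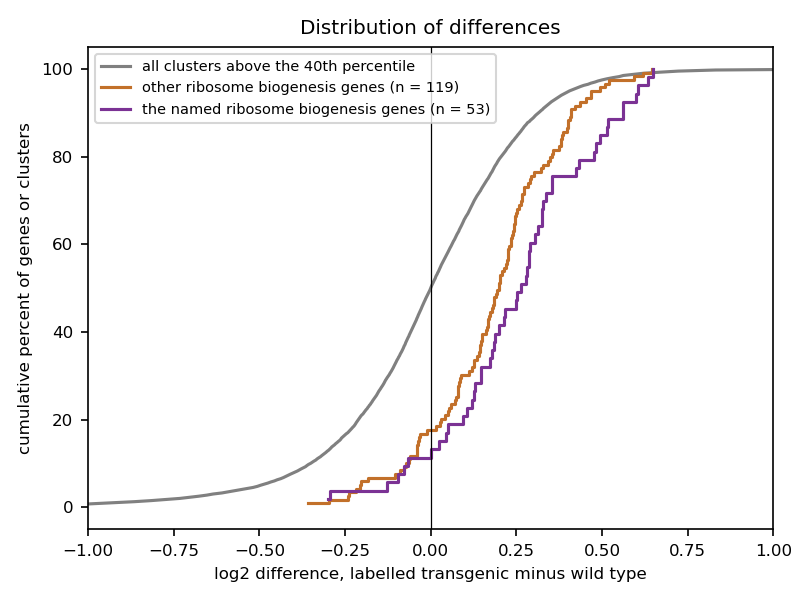
Cumulative percent of genes or clusters (vertical axis) at or below a log2 difference, labelled transgenic minus wild type (horizontal axis). The purple line is the 53 ribosome biogenesis genes with a median of 0.26, the orange line 119 further genes of the pathway with a median of 0.20, and the grey line all 13999 clusters above the 40th percentile of signal, centred near 0.

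Array 05 was the low one of its group for these genes. It held the lowest of the 3 labelled transgenic values in 47 of 53 genes, against 55.7% of all clusters and 72.3% of the clusters above the 40th percentile. Set against each gene's wild-type mean, the median gene stood at 0.33 on array 03, 0.37 on array 04 and 0.08 on array 05. The wild-type arrays stood at -0.06, 0.07, -0.07 and 0.07 for 21, 22, 23 and 24. Arrays 03 and 04 were thus above the wild-type range, and array 05 only just above its upper end. Without array 05 the median difference was 0.34, 50 of 53 genes were higher (55.6% of all clusters), 31 were higher at unadjusted p under 0.05 (11.7%) and 1 was lower (4.07%). In 37 genes arrays 03 and 04 both lay above all wild-type arrays (18.7%) and in 1 they lay below (9.15%). Over the clusters above the 40th percentile these backgrounds were 62.6% with a higher mean, 16.7% higher at unadjusted p under 0.05 and 26.4% with arrays 03 and 04 above wild type, so part of the larger counts was shared by bright clusters in general. Still no gene passed the adjusted threshold, the smallest adjusted p being 0.164, and 0.00857% of all clusters passed. Counts of higher genes without array 05 in the classes and lists below have these same backgrounds.

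**Figure D2:**
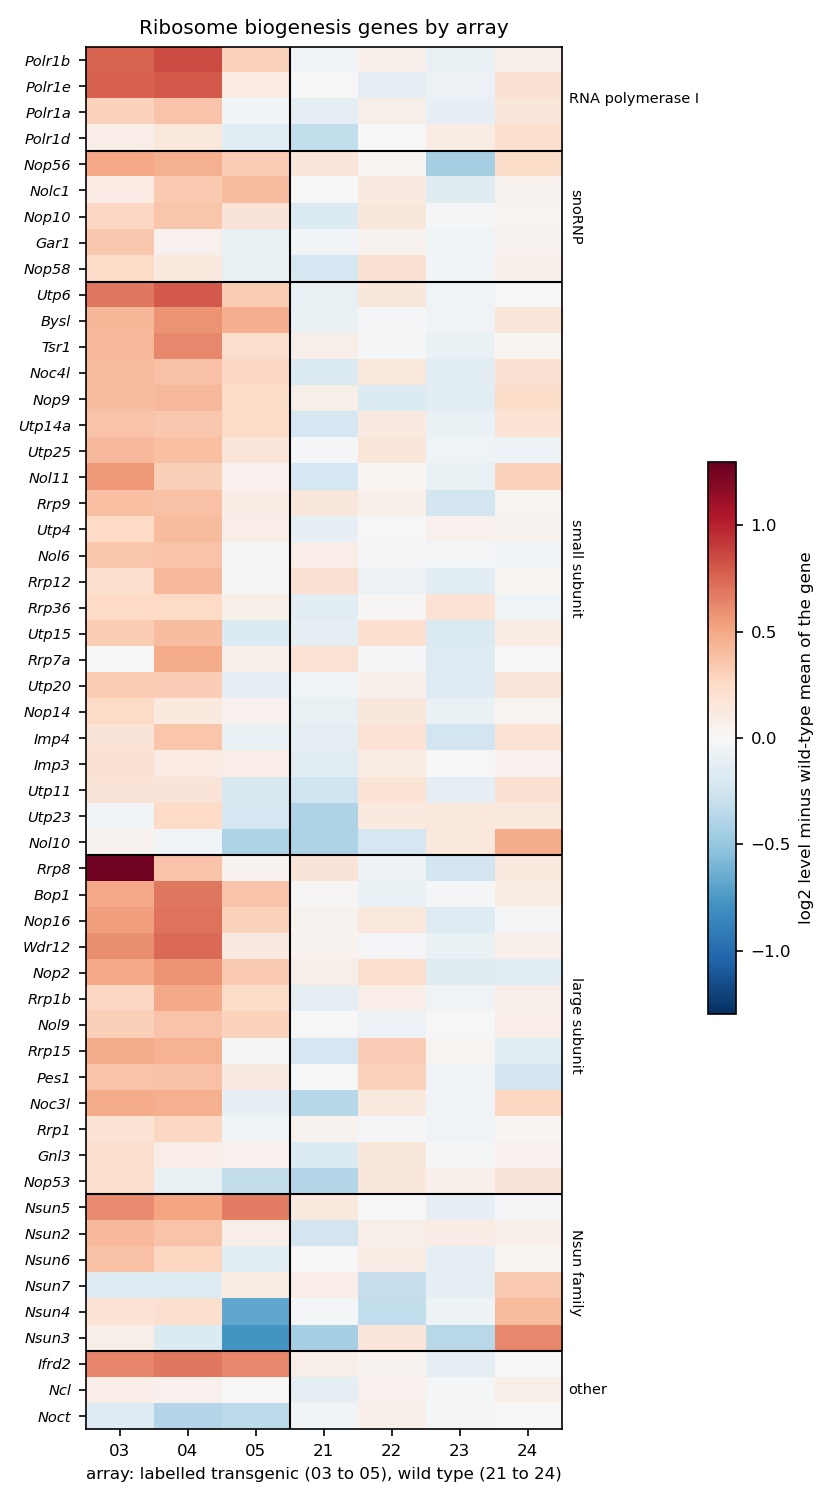
Log2 level of each of the 53 genes (rows, grouped by role) on each array (columns) minus the gene's wild-type mean. Red is above and blue below it. Arrays 03 and 04 are red in most rows, array 05 is paler with a median of 0.08, and Nsun3, Nsun4, Nol10, Nop53, Nsun7 and Noct have a lower labelled transgenic mean.

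Myc, the transcription factor known to drive this pathway, was at 10.52, 10.42 and 10.18 against 9.60, 9.50, 9.01 and 9.13, with groups apart and a difference of 1.06 (SE 0.18, unadjusted p = 0.000418, adjusted p = 0.279). Its antagonist Mxd1 was at 8.34, 8.53 and 8.03 against 8.85, 8.80, 8.85 and 9.06 (difference -0.59, SE 0.14, adjusted p = 0.330). Of 11 measured genes of the Myc network 3 were higher and 8 lower, with a median of -0.08, or -0.07 without array 05.

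Promoters were read for the site that Myc and its partner Max are known to bind, the E-box CACGTG, which reads the same on both strands. RefSeq windows of the mouse assembly GRCm38.p6, from 250 bases before to 50 after each start, matched 45 of the 53 genes. The site was present in 9 of them, 20%, against 10.2% of 11869 genes on the array with such a window and 8.09% of all 27025 genes. The median difference was 0.29 for the 9 genes and 0.27 for the other 36, given as a description with no test. The site and 12 bases on each side, cut at the window's end for Utp20, are shown 5′ to 3′ on the gene's strand because they show how the site recurs in otherwise unlike sequence, with the E-box in capitals.
Nop2: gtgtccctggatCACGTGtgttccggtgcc
Tsr1: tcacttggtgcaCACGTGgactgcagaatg
Utp25: agccagcgtgccCACGTGcgacagcgacaa
Utp4: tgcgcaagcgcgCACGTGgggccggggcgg
Pes1: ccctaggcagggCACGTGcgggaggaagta
Nol11: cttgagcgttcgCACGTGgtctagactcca
Rrp7a: gtgcctgtgcacCACGTGtcctggaactgg
Utp20: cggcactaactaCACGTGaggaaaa
Imp4: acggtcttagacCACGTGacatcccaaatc

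These stretches lie at chr6:125131811-125131840 on the plus strand for Nop2, chr11:74898092-74898121 plus for Tsr1, chr1:193130211-193130240 minus for Utp25, chr8:106893643-106893672 plus for Utp4 and chr11:3963965-3963994 plus for Pes1. Those of Nol11, Rrp7a, Utp20 and Imp4 lie at chr11:107189407-107189436 minus, chr15:83122992-83123021 minus, chr10:88826765-88826789 minus and chr1:34439696-34439725 plus. The site begins 60 bases upstream of the start in Nop2, 43 in Nol11, 121 in Imp4 and 208 in Rrp7a. In Pes1, Utp4, Utp25, Tsr1 and Utp20 it begins 2, 15, 23, 24 and 37 bases downstream of the first transcribed base. Utp25 has 3 annotated starts, which place the same site at -245, 23 and 42, negative values being upstream, and the stretch was taken from the window that places it at 23.

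Genes with large differences were also found without the site. The 150 bases before the start are shown for Nop2 with the E-box in capitals, at chr6:125131733-125131882 plus. They are also shown for Ifrd2 and Bysl, at chr9:107587568-107587717 plus and chr17:47611493-47611642 minus. Neither of these 2 genes has CACGTG in its window, but both hold the variant CACGCG, which is described below.
Nop2: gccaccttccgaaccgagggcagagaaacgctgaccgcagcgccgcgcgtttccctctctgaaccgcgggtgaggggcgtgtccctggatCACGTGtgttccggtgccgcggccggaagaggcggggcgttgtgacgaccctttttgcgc
Ifrd2: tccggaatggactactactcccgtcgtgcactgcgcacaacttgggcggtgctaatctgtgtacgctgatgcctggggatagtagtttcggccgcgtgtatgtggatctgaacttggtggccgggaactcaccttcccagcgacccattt
Bysl: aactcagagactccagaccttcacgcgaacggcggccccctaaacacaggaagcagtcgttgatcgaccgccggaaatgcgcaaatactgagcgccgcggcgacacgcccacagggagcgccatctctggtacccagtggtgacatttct

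Further motifs were searched on both strands, with shares given for the 45 genes and for the array genes. GGGCGG, a GC box, was in 71.1% against 56.9%, CCGGAAG, of the ETS kind, in 28.9% against 14.4%, and CACGCG, a variant of the E-box that cannot share bases with it on either strand, in 26.7% against 16.0%. TATAAA was in 6.67% against 13.2%. A pair of longer motifs, not spelled out here, matched 2 genes (4.44% against 0.918%) and 0 genes (0.564% of array genes). Genes with the GC box had a median difference of 0.31 and those without it 0.17. For CACGCG these medians were 0.29 and 0.21, for CCGGAAG 0.28 and 0.28, and for TATAAA 0.29 and 0.27. For the longer motif that matched 2 genes they were 0.02 and 0.28. None of these pairs was tested. A match in a window is a description of its letters and not of binding.

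The symbol rule took in 4 RNA polymerase I subunits. All had a higher mean, 2 at unadjusted p under 0.05, and in 1 the groups did not overlap. The median difference of these 4 was 0.39. Without array 05 it was 0.56, with 3 genes past that p, where 11.7% of all clusters were higher by that rule. Further subunits, which the annotation lists under older names, are not in these counts and are given below with lower differences. Polr1b, which encodes the second largest catalytic subunit, was at 8.25, 8.33 and 7.79 on arrays 03, 04 and 05 and at 7.45, 7.56, 7.39 and 7.56 on arrays 21 to 24. The groups did not overlap, array 05 being the nearest to wild type. The difference was 0.63 (SE 0.15, unadjusted p = 0.0034, adjusted p = 0.316), a 1.55-fold higher level. Polr1e, a subunit that works with the initiation machinery, was at 7.58, 7.62 and 6.92 against 6.82, 6.69, 6.74 and 7.01. Arrays 03 and 04 were high, but array 05 lay below wild type 24, so the groups overlapped at a difference of 0.56 (SE 0.19, unadjusted p = 0.0193). Polr1a, the largest subunit, was at 8.56, 8.63 and 8.22 against 8.13, 8.33, 8.15 and 8.42, with array 05 inside the wild-type range and a difference of 0.21 (95% interval -0.11 to 0.54), or 0.34 without array 05.

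Polr1d, a subunit that polymerase I shares with polymerase III, was at 10.16, 10.21 and 9.94 against 9.76, 10.09, 10.18 and 10.29. Its difference was 0.03, with a 95% interval from -0.33 to 0.38, and 0.11 when array 05 was left out. A further cluster of this gene, dimmer at 5.53 to 6.72, differed by -0.16 (SE 0.34). Of the subunits that the annotation lists under older names, Cd3eap differed by 0.08 (SE 0.17), Twistnb by -0.08 (SE 0.17) and Znrd1 by -0.24 (SE 0.28). Whether these subunits differ from Polr1b and Polr1e was not tested.

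Factors of several roles in transcription by polymerase I formed a list of 13 measured genes, with Baz2a, Kdm2a, Top1, Ttf1 and the 3 older-named subunits included. Of these 7 were higher and 3 were so at unadjusted p under 0.05, with a median difference of 0.08. Leaving out array 05 gave a median of 0.22 and 5 genes past that p. Ubtf, the architectural factor that coats active ribosomal genes, was at 9.42, 9.56 and 9.36 against 9.20, 9.08, 9.05 and 9.15. Its groups did not overlap and the difference was 0.33 (SE 0.10, unadjusted p = 0.0131, adjusted p = 0.384). Sirt7, a deacetylase known as an activator of polymerase I, differed by 0.45 (SE 0.13), and Tcof1, the nucleolar protein treacle, by 0.27 (SE 0.10). Taf1d, part of the promoter selectivity factor, stood at -0.24 (SE 0.17). Rrn3, Taf1a, Taf1b and Taf1c had no row with a single symbol and were not analysed here.

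The polymerases for other RNAs served as neighbours of the enzyme. Of 9 RNA polymerase II subunits 7 were higher, with a median difference of 0.14, and 1 was higher at unadjusted p under 0.05, Polr2g at 0.41 (SE 0.15). Of 18 polymerase III subunits and factors 12 were higher, with a median of 0.10 and 3 past that rule, Polr3e at 0.44 (SE 0.12), Polr3g at 0.35 (SE 0.10) and Polr3k at 0.27 (SE 0.12). Both lists depended on array 05, without which 4 polymerase II subunits were past that p at a median of 0.25, and 6 polymerase III genes at a median of 0.18. The difference between these lists and the polymerase I subunits was not tested.

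**Figure D3:**
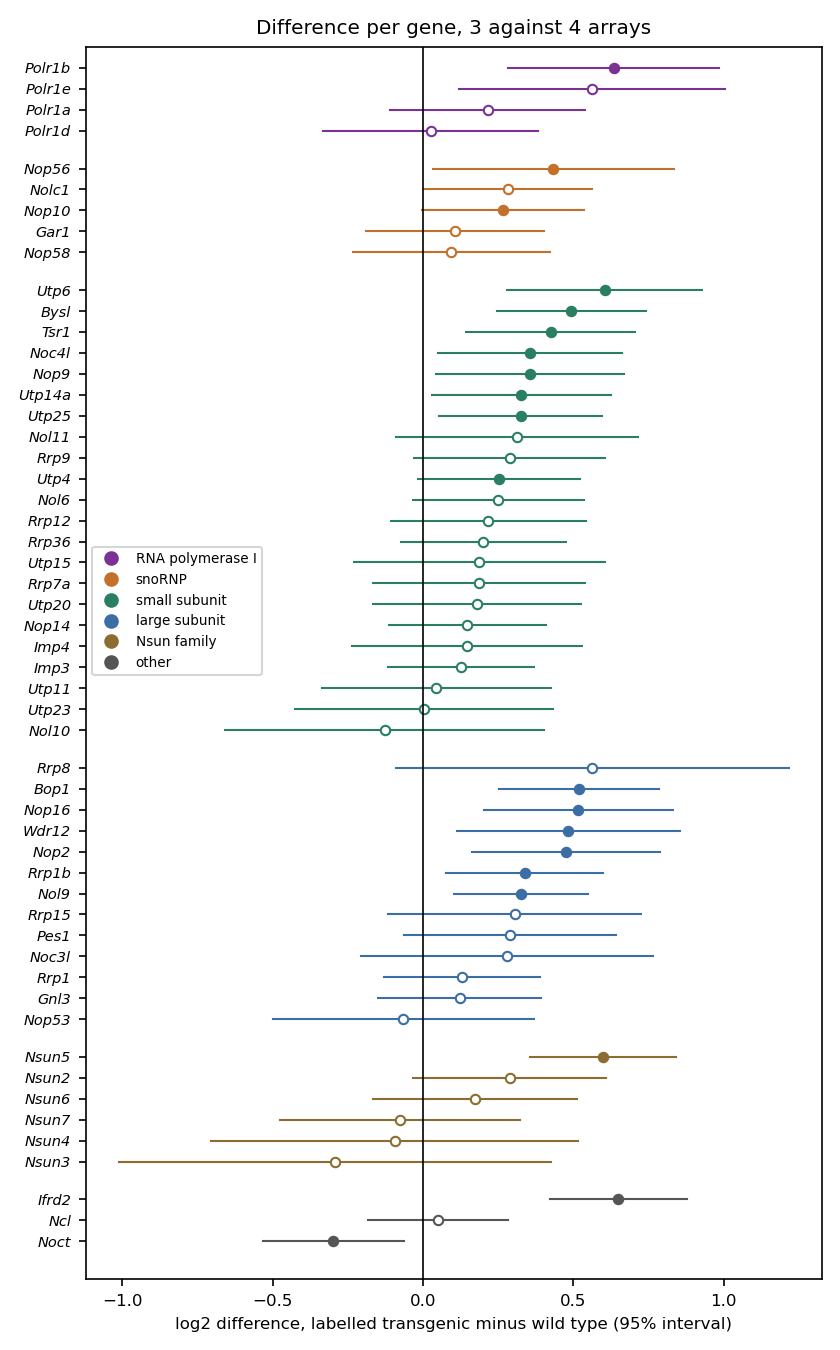
Log2 difference of each of the 53 genes, labelled transgenic minus wild type, with its 95% interval from limma over 3 and 4 arrays, coloured by role. Filled points mark the 20 genes in which the groups do not overlap, 19 higher and Noct lower.

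All 5 small nucleolar RNP genes had a higher mean, with a median difference of 0.26 (0.22 without array 05), and in 2 the groups did not overlap. Nop56 and Nop58 are the paired core proteins of the box C/D particles, which guide ribose methylation. Nop56 was at 10.50, 10.46 and 10.33 against 10.15, 10.02, 9.57 and 10.24, with no overlap and a difference of 0.43 (SE 0.17, unadjusted p = 0.0378). Its partner Nop58 was at 10.59, 10.46 and 10.25 against 10.11, 10.54, 10.30 and 10.41, with overlap and a difference of 0.09 (95% interval -0.23 to 0.42). When array 05 was left out, Nop58 differed by 0.19. The intervals of the pair overlapped, and the difference between them was not tested.

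In the box H/ACA particles, which guide pseudouridylation, Nop10 was at 10.86, 10.95 and 10.75 against 10.41, 10.74, 10.58 and 10.62. The groups did not overlap, array 05 lying just above wild type 22, and the difference was 0.26 (SE 0.12, unadjusted p = 0.0531). Gar1, another core protein, was at 10.26, 9.97 and 9.83 against 9.87, 9.96, 9.86 and 9.96, so that only array 03 stood out, and differed by 0.11 (95% interval -0.19 to 0.40), or 0.20 without array 05. Nolc1, a nucleolar chaperone of both particle kinds, was at 9.67, 9.90 and 9.96 against 9.55, 9.68, 9.40 and 9.60. Unlike most genes of the group it was highest on array 05, and it overlapped wild type at array 03, with a difference of 0.28 (SE 0.12, unadjusted p = 0.049). Of 9 further snoRNP genes all were higher, with a median of 0.29. At unadjusted p under 0.05 there were 5 without array 05 (median 0.34) and 1 with it, Ruvbl2, an ATPase of the assembly machinery, at 10.31, 10.27 and 10.14 against 9.73, 9.79, 9.67 and 9.80 (difference 0.49, SE 0.10, adjusted p = 0.283).

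Small subunit factors formed the largest class, with 22 genes. Of these 21 were higher, 7 at unadjusted p under 0.05, and in 8 the groups did not overlap, with a median difference of 0.23. Without array 05, 13 were past that p, where 11.7% of all clusters were higher by that rule, and the median was 0.35. Utp6, a component of the UTP-B complex of the processome, was at 8.16, 8.26 and 7.80 against 7.37, 7.61, 7.42 and 7.47. All labelled transgenic arrays were higher and the difference was 0.60 (SE 0.14, unadjusted p = 0.00286, adjusted p = 0.308). Bysl, or bystin, needed for late maturation of the small subunit precursor, was at 8.36, 8.52 and 8.40 against 7.85, 7.91, 7.89 and 8.09. Here array 05 was as high as array 03, and the difference was 0.49 (SE 0.11, unadjusted p = 0.00197).

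Tsr1, a GTPase-like late factor of the small subunit, was at 9.18, 9.38 and 8.99 against 8.83, 8.75, 8.68 and 8.78, a difference of 0.42 (SE 0.12, unadjusted p = 0.00862). Noc4l, Nop9, Utp14a and Utp25, whose yeast homologues act in small subunit assembly, differed by 0.32 to 0.36, each with groups apart. Utp4, a UTP-A component, also kept its groups apart at a difference of 0.25 (SE 0.12, unadjusted p = 0.0621). Nol11 and Utp15, which join Utp4 in that complex, differed by 0.31 (SE 0.17) and 0.19 (SE 0.18) with overlap.

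In the rest of the class the groups overlapped. Imp3 and Imp4, partners in the Mpp10 complex, differed by 0.13 (95% interval -0.12 to 0.37) and 0.15 (-0.24 to 0.53). Utp11 and Utp23 differed by 0.04 and 0.00187, and Nol10 stood at -0.13 (95% interval -0.66 to 0.40). Nol10 ranged among the wild-type arrays alone from 7.28 on array 21 to 8.16 on array 24. Rrp7a, Rrp9, Rrp12, Rrp36, Nol6, Nop14 and Utp20 lay between 0.15 and 0.29, all with overlap. Array 05 weighed on several of these: without it Utp15 differed by 0.37, Utp20 by 0.32, Imp4 by 0.26, Utp11 by 0.17, Utp23 by 0.11 and Nol10 by 0.00819.

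Large subunit factors had a median difference of 0.33, with 12 of 13 genes higher, 6 of them at unadjusted p under 0.05 and with groups apart. Leaving out array 05 gave 9 past that p (11.7% of all clusters higher) and a median of 0.46. Bop1, Pes1 and Wdr12 form the PeBoW complex, which is needed to process the large subunit RNAs and is a known Myc target. Bop1 was at 8.19, 8.38 and 8.07 against 7.71, 7.61, 7.67 and 7.79, a difference of 0.52 (SE 0.11, unadjusted p = 0.0022, adjusted p = 0.291). Wdr12 was at 7.68, 7.81 and 7.19 against 7.12, 7.06, 6.99 and 7.14, where array 05 came close to wild type, and differed by 0.48 (SE 0.16). Pes1 was at 8.46, 8.47 and 8.21 against 8.08, 8.39, 8.04 and 7.84, so that array 05 fell below wild type 22, and differed by 0.29 (95% interval -0.06 to 0.64). All 3 members of the complex had higher means, and Pes1 alone overlapped.

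Nop16, a nucleolar protein also known as a Myc target, was at 9.49, 9.66 and 9.25 against 8.99, 9.09, 8.78 and 8.94, a difference of 0.52 (SE 0.13, unadjusted p = 0.00563). Nol9, a kinase that acts on RNA ends during processing, was at 8.40, 8.47 and 8.39 against 8.09, 8.02, 8.09 and 8.19. The 3 labelled transgenic arrays lay close together and above all wild-type arrays for Nol9, and its difference was 0.33 (SE 0.10, unadjusted p = 0.00989). Rrp1b differed by 0.34 (SE 0.11) with groups apart, whereas its relative Rrp1 differed by 0.13 (95% interval -0.13 to 0.39). Rrp8, a methyltransferase of the large subunit RNA that also acts at ribosomal gene chromatin, was uneven over the labelled transgenic arrays. It was at 8.50 on array 03 and at 7.60 and 7.27 on arrays 04 and 05, against 6.99 to 7.40 in wild type, a difference of 0.56 (SE 0.28). Arrays 03 and 04 lay above all wild-type arrays and array 05 did not. Without array 05 Rrp8 differed by 0.82 (SE 0.26). Gnl3, or nucleostemin, a GTPase abundant in stem cells, differed by 0.12 (95% interval -0.15 to 0.39), and Nop53 by -0.07 (SE 0.19). The sign of Nop53 turned without array 05, to 0.06, and Rrp1 then differed by 0.22.

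Of the 6 Nsun genes 3 had a higher mean, with a median difference of 0.05, and 1, Nsun5, kept its groups apart and was past the unadjusted p. That low median rested on array 05: without it the median was 0.26 and 3 genes were past that p (11.7% of all clusters higher). Nop2, which belongs to the Nsun family by sequence, and Nsun5 each methylate the large subunit RNA. Nop2 was at 8.82, 8.90 and 8.66 against 8.39, 8.54, 8.16 and 8.18, a difference of 0.48 (SE 0.13, unadjusted p = 0.00826, adjusted p = 0.368). Nsun5 was at 8.12, 8.01 and 8.17 against 7.63, 7.50, 7.40 and 7.49, with array 05 the highest, and differed by 0.60 (SE 0.10, unadjusted p = 0.000539, adjusted p = 0.279). Neither gene had overlapping groups, and the promoter of Nop2 is among those printed above.

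Family members known for other RNAs had groups that overlapped. Nsun2, a methyltransferase of transfer RNAs, was at 9.41, 9.36 and 9.07 against 8.75, 9.07, 9.09 and 9.06 (difference 0.29, 95% interval -0.03 to 0.61), and Nsun6, also a transfer RNA enzyme, differed by 0.17 (95% interval -0.17 to 0.51). The mitochondrial Nsun4 was at 7.16, 7.18 and 6.30 against 6.95, 6.65, 6.91 and 7.38 (difference -0.09, 95% interval -0.70 to 0.52). Nsun3, also mitochondrial, stood at -0.29 with an interval from -1.01 to 0.42. Both mitochondrial genes were lowest on array 05, without which Nsun4 turned to 0.20, Nsun3 stood at -0.05 and Nsun6 at 0.33. Whether the family members differ from each other was not tested.

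**Figure D4:**
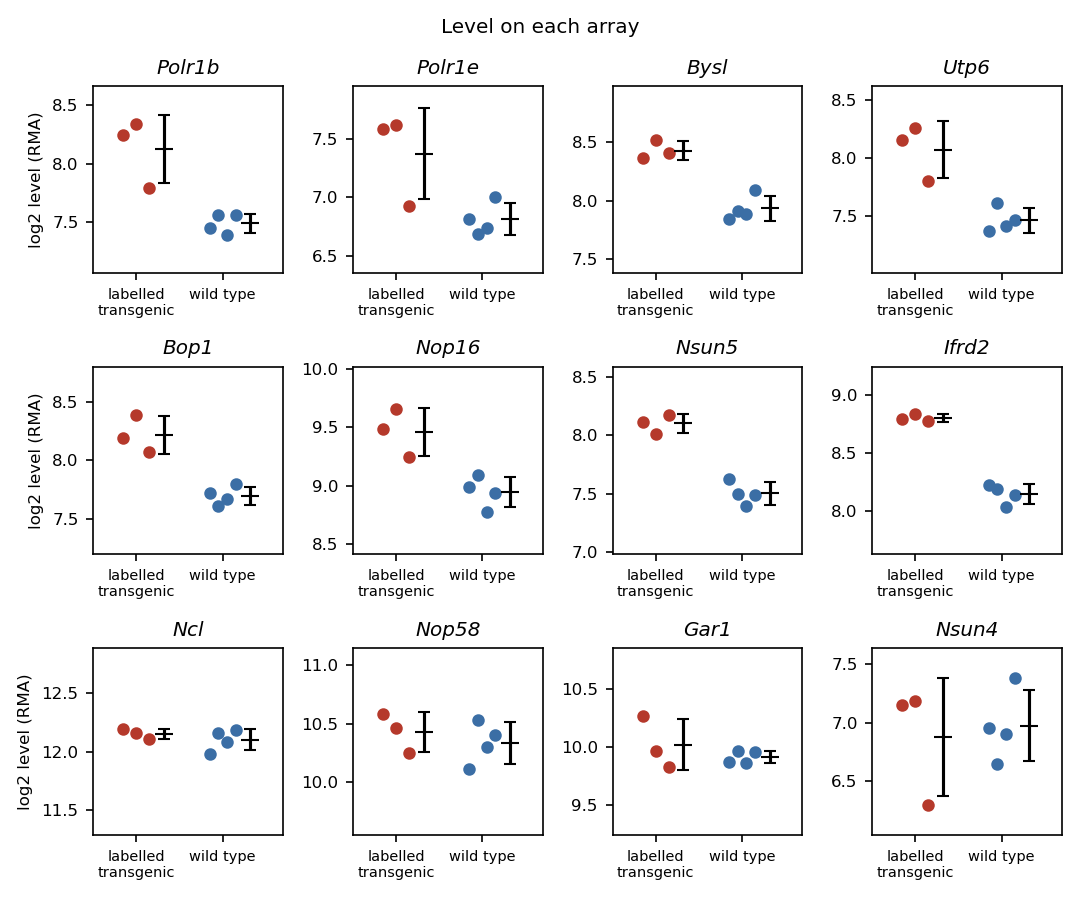
Log2 level of 12 genes on each array, labelled transgenic in red (arrays 03, 04 and 05 from left to right) and wild type in blue (21, 22, 23 and 24), with mean and SD beside each group. Every panel spans the same log2 range. Polr1b, Bysl, Utp6, Bop1, Nop16, Nsun5 and Ifrd2 have groups that do not overlap, and Polr1e, Ncl, Nop58, Gar1 and Nsun4 overlap.

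Ifrd2 had the smallest unadjusted p of the 53 genes. Its protein was found on translationally inactive ribosomes of rabbit reticulocytes. It was at 8.79, 8.84 and 8.77 against 8.23, 8.19, 8.03 and 8.14. The 3 labelled transgenic arrays lay close together and above all wild-type arrays, at a difference of 0.65 (SE 0.10, 95% interval 0.42 to 0.88, unadjusted p = 0.000216, adjusted p = 0.279), or 1.57-fold. Ncl, the abundant nucleolar protein nucleolin, was at 12.20, 12.16 and 12.11 against 11.98, 12.16, 12.09 and 12.19. The groups overlapped, with a difference of 0.05 and a 95% interval of -0.18 to 0.28. Noct was the 1 gene lower with groups apart, at 6.98, 6.77 and 6.81 against 7.11, 7.21, 7.12 and 7.16 (difference -0.30, SE 0.10, unadjusted p = 0.0193).

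Other genes of the pathway, listed apart from the 53, were also mostly higher. Of 119 measured genes 98 were higher, with a median of 0.20, and 27 were higher and 0 lower at unadjusted p under 0.05 in limma, with 0 past the adjusted threshold. Without array 05, 56 were past that p, at a median of 0.29, where 11.7% of all clusters were higher by the same rule. A list drawn up for small subunit assembly, which also took in Sart3 and Rrs1, gave 30 of 35 higher. At unadjusted p under 0.05 were 12 of its genes (17 without array 05). Among them were Nat10, an RNA acetyltransferase, at 0.47 (SE 0.12), Tbl3 at 0.51 (SE 0.13) and Pdcd11 at 0.38 (SE 0.12). Large subunit factors gave 33 of 37 higher and 9 past that rule (18 without array 05), led by Ftsj3, at 9.10, 9.18 and 8.89 against 8.46, 8.48, 8.34 and 8.47 (difference 0.62, SE 0.11, adjusted p = 0.279), with Nip7 at 0.64 (SE 0.21) and Ddx56, a helicase, at 0.40 (SE 0.13). Nucleases of ribosomal RNA processing gave 19 of 25 higher at a median of 0.17, or 0.27 without array 05. Past that rule were 11 of them without array 05 and 2 with it, the exosome subunits Exosc2 at 0.59 (SE 0.14) and Exosc7 at 0.52 (SE 0.17). Array 05 was again low, the median gene of the 119 standing at 0.28, 0.31 and 0.02 above the wild-type mean on arrays 03, 04 and 05.

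Cell cycle genes were higher on the same arrays. Of 35 measured genes 33 were higher, 15 at unadjusted p under 0.05, with a median of 0.33. Leaving out array 05 gave 19 and 0.41. Their median gene stood at 0.48, 0.37 and 0.16 above the wild-type mean on arrays 03, 04 and 05, and at -0.07, 0.11, -0.13 and 0.08 on arrays 21 to 24. In both sets wild type 22 and 24 stood above the wild-type mean and 21 and 23 below it. The same signs were found in other lists. On arrays 21 to 24 the RNA polymerase II subunits stood at -0.11, 0.07, -0.07 and 0.11. The polymerase III genes stood at -0.09, 0.01, -0.02 and 0.18. Genes of the lineage lists also differed. At unadjusted p under 0.05 in limma, 5.22% of all clusters were higher and 5.05% lower. Of 7 B cell genes 5 were lower at that p and 1 higher, with Ebf1 at -1.43 (SE 0.23). Of 12 granulocyte and monocyte genes 8 had a higher mean and 4 a lower one. Past that p were Ctsg at 0.76 (SE 0.13) and Prtn3 at 0.66 (SE 0.12). Mpo differed by 0.19, Elane by 0.12, Ngp by -0.26 and S100a8 by -0.37. Without array 05, 4 B cell genes were lower (4.07% of all clusters) and 4 granulocyte and monocyte genes higher (11.7%). Of 8 erythroid genes 7 were higher, 1 of them at that p, the transcription factor gene Gata1 at 0.61 (SE 0.11), and 2 of 8 T and NK cell genes were lower at that p, with Cd28 at -1.08 (SE 0.20). Among 8 genes of the sorted fraction 3 were higher and 5 lower, with Flt3 at -0.67 (SE 0.13), Procr at -0.44 (SE 0.20) and Cd48 at 0.55 (SE 0.19). The part of cell cycle and of cell mixture in the ribosome biogenesis values was not tested.

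**Figure D5:**
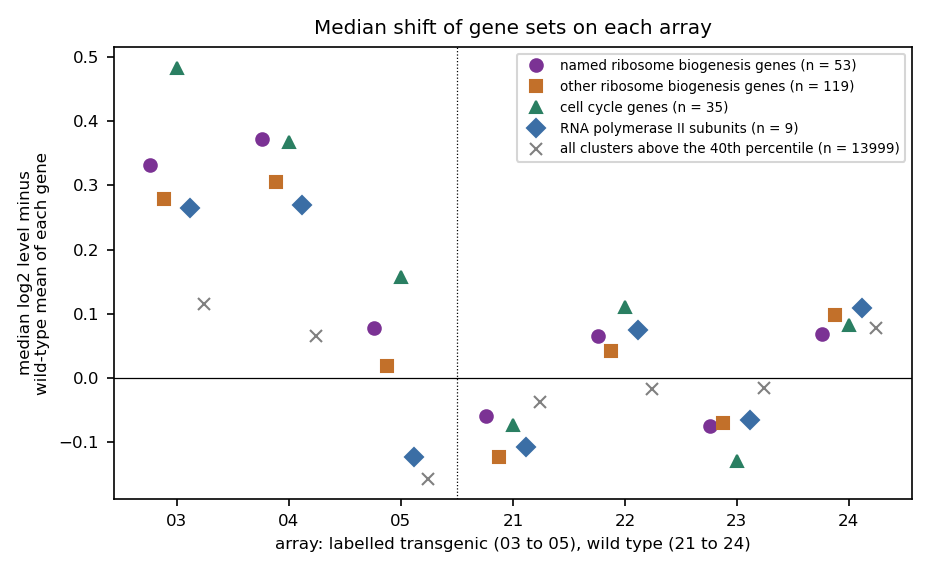
Median over the genes of a set of the log2 level minus the gene's wild-type mean (vertical axis) on each array (horizontal axis). The 53 ribosome biogenesis genes stand at 0.33, 0.37 and 0.08 on arrays 03, 04 and 05, the 35 cell cycle genes at 0.48, 0.37 and 0.16, and the 13999 clusters above the 40th percentile at 0.11, 0.07 and -0.16.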

How the data were processed

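The authors deposited log2 values, 1 for each transcript cluster on each array. The submitters' processing notes name RMA and the build mm9. RMA subtracts background, makes the arrays' distributions alike and combines a cluster's probes, which can shrink a shift shared by most genes. No settings of it are given in the sources used here, and the log2 scale was read from the range of values (1.28 to 14.03). Gene symbols came from the platform annotation, and of several clusters of a gene the brightest on average was used. All 23332 clusters of the 7 arrays were fitted with limma 3.58.1 (lmFit, eBayes; R 4.3.3), genotype as the only term, two-sided, with Benjamini-Hochberg adjustment over all clusters. Differences are transgenic minus wild type, and SEs and 95% intervals are limma's. Each mouse is 1 sample, and precision is limited by having 7 arrays. The fit was tested on simulated data.

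The members, role classes, gene lists and motifs were chosen with earlier results of these data known, and the motifs other than the E-box after the files were read. Named with statistics were up to 5 genes per class by smallest p, the 3 lowest differences, fixed genes such as Ncl, Polr1a and Myc, and up to 3 per list; other genes given with an SE or interval were chosen after their values were seen. In 2 clusters a rule name shared its row with another gene (Utp14b and a further Nop56 row), and these were left out. No set test was run. Alternatives were a signal filter, quantile normalization, median centring, limma's array weights, a robust prior with an intensity trend, the other cluster of a gene, a threshold of 0.1, 1 cluster per gene, lists without members and leaving out each array.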

Additional observations from a re-analysis of the deposited data

Results flagged for a closer look

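In 2 of the 53 genes 1 wild-type array lay far from the other 3 by Dixon's criterion, which chance meets in about 1 in 20 groups. Nsun2 was at 8.746 on wild type 21 and between 9.06 and 9.09 on the other wild-type arrays. Utp23 was at 5.886 on wild type 21 and between 6.42 and 6.43 on the others. Both differences between the groups include that array.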

How the results depend on the processing

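No member passed the adjusted threshold under any alternative run, the smallest member value being 0.0666 when limma was refitted on 1 cluster per gene. Over the other alternatives adjusted p-values of 28 genes ranged from 0.0806 to 0.995. The median difference stayed positive throughout, between 0.188 and 0.341 on leaving out 1 array, and quantile normalization (0.265) and centring (0.323), which moved the median of all clusters by under 0.1, gave the same direction. The counts depended on single arrays. At unadjusted p under 0.05 the members numbered 20, 35 with array weights (where the share of all clusters was 13.1% higher and 7.11% lower), and 10 to 32 on leaving out 1 array (13 without 03, 10 without 04, 32 without 05). Members with groups apart numbered 20, and 38 without array 05, where the share of all clusters was 18.7% higher and 9.15% lower. Leaving out an array can only keep or raise this number, so that it never fell below 20 was fixed in advance. The other genes of the pathway at that p numbered 27, 51 after centring (9.25% of all clusters higher), 59 with array weights, and 6 to 56 on leaving out 1 array (13 without 03, 6 without 04, 56 without 05, 15 without wild type 23). Among single genes near 0 the sign turned for Polr1d in its dimmer cluster (-0.163) and without 03, 04 and wild type 21 (-0.0041, -0.0296 and -0.0822), the highest value on leaving out 1 array being 0.109. It turned for Gar1 without 03 (-0.0149 to 0.201 on leaving out 1 array), for Nol10 without 05 and wild type 24 (0.00819 and 0.0333, the lowest being -0.259) and for Nsun7 without wild type 24 (-0.175 to 0.038). The cause was not tested. The signal filter removed Nsun7. No paired analysis was possible because no replicate number occurs in both groups. The number of arrays and array 05 limit all counts.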
